A study of Mus musculus with 6 samples.

Results

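Interferon response genes are the genes that a cell switches on after interferon binds its receptors. They were followed here in long-term hematopoietic stem cells (LT-HSCs) from mice with and without latexin (Lxn), an inhibitor of metallocarboxypeptidases. The list held 32 genes of the response, and a gene counted as measured where the array had a probe set whose only platform symbol was that gene. By this rule 25 of the 32 genes were measured, out of 19938 genes with such a probe set, each represented by its brightest probe set over 6 arrays. A further 6 genes (Isg15, Gbp2, Gbp6, Igtp, Irgm2 and Ifi47) lay only on 5 probe sets that the platform also assigns to other genes, and Ifi44 was matched to none.

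The WT pools came from female C57BL/6 mice aged 8 to 12 weeks with an intact latexin gene, and the Lxn-/- pools from mice of that strain, sex and age in which exons 2 to 4 of latexin are deleted and the protein is lacking. Per the design text, the sort from bone marrow kept Sca1+ and c-Kit+ cells that lacked lineage markers, CD34 and a protein spelled Flt2, and each pool held nearly 100000 cells of 10 to 20 mice. There were 3 pools per genotype, each on 1 Affymetrix mouse Gene ST array, and values are log2 expression after robust multi-array averaging (RMA). A difference is the Lxn-/- mean minus the WT mean, in log2 units. In bulk RNA of this kind, fewer cells of a type and less RNA per cell cannot be told apart.

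Type I interferon signals through the receptor chains Ifnar1 and Ifnar2 and the kinases Jak1 and Tyk2 to a complex that includes Stat2 and Irf9 and binds a DNA element called the interferon-stimulated response element (ISRE). Genes induced by type II interferon often carry a shorter element called the gamma-activated site (GAS). The induced genes encode RNA sensors, enzymes and GTPases that act on viruses and intracellular microbes, and feedback regulators. Blood stem cells are known to hold a basal level of these transcripts, and interferon can bring dormant stem cells into cycle. Sca1, the surface protein used in the sort, is itself inducible by interferon.

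The elements are shown because the response is known to reach its genes through them; not every promoter of the list held their letters. RefSeq promoter windows (build GRCm38.p6, 250 bases before to 50 after a gene's start) were found for 25 of the 32 genes. The letters GAAANNGAAA, read on both strands, occurred in 15 of these 25 genes, or 60.0%, against 3.99% of all 27025 genes with a window and 3.44% of all windows. Copies can overlap each other where GAAA repeats. The following stretches lie before the start, run 5′ to 3′ on the gene's strand and carry the ISRE letters in capitals.
Ifit1, chr19:34640765-34640833, plus strand: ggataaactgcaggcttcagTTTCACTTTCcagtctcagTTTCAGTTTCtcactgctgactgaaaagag
Ifit3, chr19:34583353-34583436, plus strand: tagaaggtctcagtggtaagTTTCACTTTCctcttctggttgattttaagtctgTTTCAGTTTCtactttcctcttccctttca
Oas1a, chr5:120907526-120907565, minus strand: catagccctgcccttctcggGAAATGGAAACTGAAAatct
Oas3, chr5:120777705-120777754, minus strand: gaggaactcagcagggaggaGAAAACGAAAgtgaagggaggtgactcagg
Rsad2, chr12:26456543-26456592, minus strand: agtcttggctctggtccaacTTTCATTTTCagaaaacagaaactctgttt
Stat2, chr10:128270256-128270305, plus strand: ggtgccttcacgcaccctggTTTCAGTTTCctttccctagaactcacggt
Irgm1, chr11:48871421-48871470, minus strand: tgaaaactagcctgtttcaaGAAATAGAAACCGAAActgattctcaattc
Bst2, chr8:71537567-71537622, minus strand: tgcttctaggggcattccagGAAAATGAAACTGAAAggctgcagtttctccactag
Igtp, chr11:58199502-58199551, plus strand: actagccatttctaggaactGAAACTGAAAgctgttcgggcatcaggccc
Irgm2, chr11:58214893-58214942, plus strand: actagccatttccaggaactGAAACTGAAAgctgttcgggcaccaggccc

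Ifit1 and Ifit3 each carried 2 copies, spaced apart, while the copies of Oas1a, Irgm1 and Bst2 overlapped. The stretches of Igtp and Irgm2, which also share a probe set on this array, were identical at 48 of 50 bases. The GAS letters TTCNNNGAA, which read the same on both strands, occurred in 7 of the 25 genes, or 28.0%, against 9.55% of all genes with a window, and 4 of the ISRE genes printed here (Bst2, Oas1a, Igtp and Irgm2) held both, in Bst2 with GAS letters that run into the ISRE letters. A match is a description of letters, not a binding site. Among members with a probe set of their own, the 11 with ISRE letters had a median difference of 0.097 with 9 higher in Lxn-/-, and the 8 whose window lacked the letters had a median of 0.042 with 7 higher. The 6 measured members not matched to a window (Ifi27l2a, Iigp1, Mx1, Mx2, Oas2 and Usp18) had a median of 0.21 with 6 higher. They held both of the widest differences, and whether their promoters carry the letters is not known here. Whether the differences follow the element was not tested. Gbp6 was not matched to a window either.

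No interferon response gene differed between the genotypes by the test over all genes. Of the 25 members, 0 passed an adjusted p of 0.05 in limma (lowest adjusted p 0.993), against a background of 0.00% of 23410 probe sets, so the values that follow describe these 6 pools. Before adjustment, 2 members had a p under 0.05 in limma, Mx1 and Oas2, both higher in Lxn-/-, where 1.47% of all probe sets passed in that direction. The mean was higher in Lxn-/- for 22 of 25 members, or 88.0%, against 44.0% of all 19938 genes. The median difference was 0.12, against -0.013 over all genes. With each array shifted to a common median, 17 of 25 members, or 68.0%, were higher, against 25.6% of all genes. The 95% confidence intervals of all 25 members stayed under 1 log2 unit in size, and those of 18 under 0.5.

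**Figure D1:**
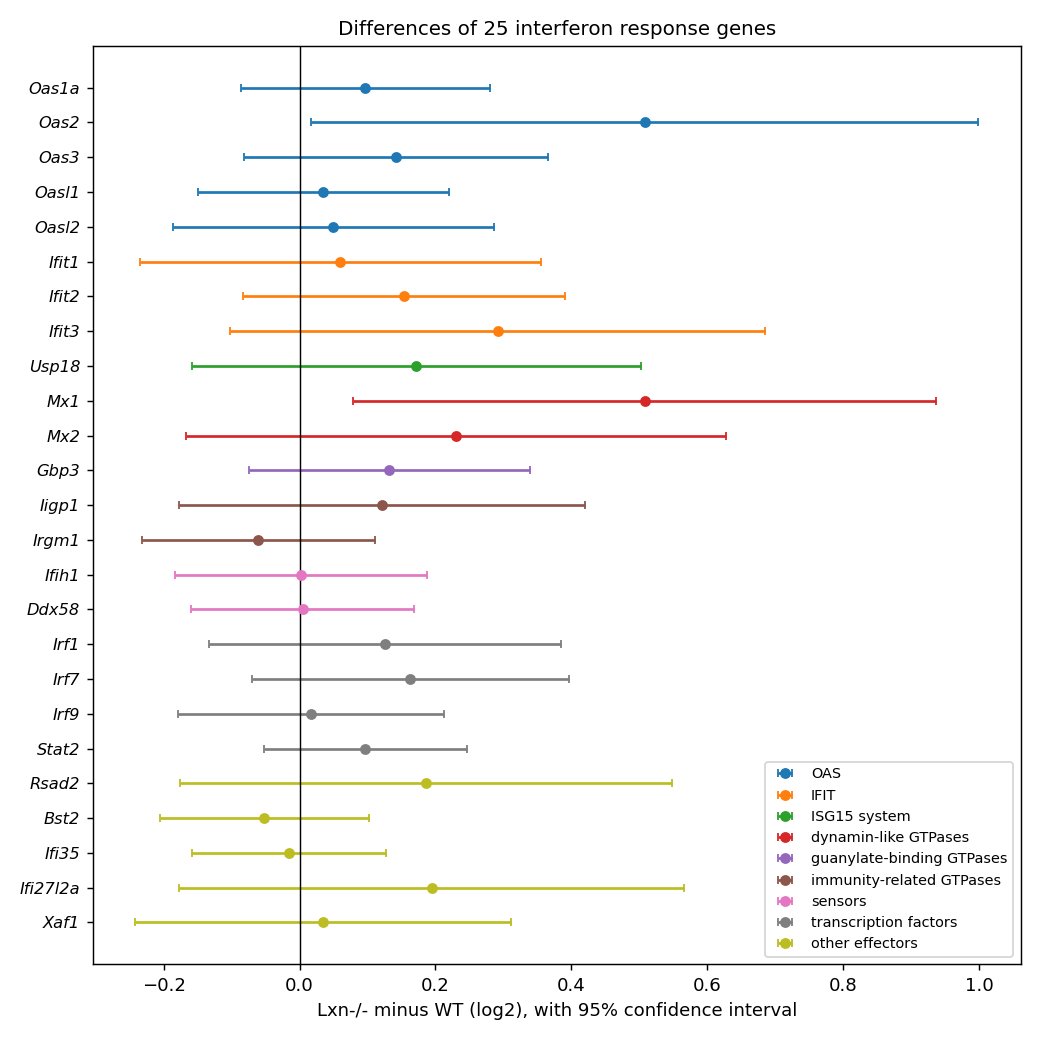
Difference of each of the 25 measured interferon response genes between Lxn-/- and WT pools, on the log2 scale, with its moderated 95% confidence interval (3 pools per genotype); colours mark the role. Intervals of Mx1 and Oas2 exclude 0 before adjustment, and points run from -0.060 for Irgm1 to 0.51 for Oas2 and Mx1.

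The Lxn-/- label was checked on Lxn itself, whose values in replicates 1, 2 and 3 were 8.99, 9.09 and 9.55 in WT and 8.66, 8.78 and 8.78 in Lxn-/-. The groups did not overlap, and the difference was -0.47 (SE 0.14), or 1.39-fold lower in Lxn-/-, with an adjusted p of 0.993 in limma. The sources used here do not place its probes relative to the deleted exons, and the probe set stayed well above the dim mark given next in all Lxn-/- pools, so it checks the deletion only in part. Array medians ranged from 7.77 to 7.91. Of the 10 gate and stem cell genes listed, 8 were measured, and all 8 lay above a level of 6.93, used here as a mark of dim signal because 95% of the 1205 probe sets for odorant or pheromone receptors fall below it. Flt3 and Cd34, which a stem cell gate of this kind selects against, were among them in every pool, with Cd34 between 13.01 and 13.30. Neutrophil markers set some pools apart, with a mean level over 10 genes of 11.27, 10.57 and 9.04 in WT and 10.78, 9.51 and 11.69 in Lxn-/-, in replicate order. All 25 members lay above the dim mark.

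Among GTPases, the dynamin-like pair Mx1 and Mx2 had the widest differences over all 6 pools. Mx1, which blocks influenza-type viruses in the nucleus and carries a deletion in many inbred strains including C57BL/6, measured 7.85, 7.52 and 7.50 in WT and 8.57, 7.93 and 7.89 in Lxn-/- (probe set 10441233), in the order of replicates 1, 2 and 3. All Lxn-/- values lay above all WT values, by the smallest margin between WT replicate 1 and Lxn-/- replicate 3, and Lxn-/- replicate 1 stood well above the rest. Its difference of 0.51 (SE 0.19, 95% confidence interval 0.079 to 0.94) equals 1.42-fold, with an unadjusted p of 0.0259 and an adjusted p of 0.993 in limma and an exact two-sided permutation p of 0.1, the smallest that 3 against 3 arrays can give. Without Lxn-/- replicate 1 it was 0.29.

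Mx2, the cytoplasmic relative of Mx1, measured 7.49, 7.16 and 7.13 in WT and 7.84, 7.17 and 7.46 in Lxn-/-, again in replicate order, as are all values below. The groups overlapped, and the same pool was highest. The difference of 0.23 (SE 0.17) became 0.055 without Lxn-/- replicate 1.

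Guanylate-binding proteins coat pathogen vacuoles, and immunity-related GTPases act on the same membranes. Gbp3 measured 9.28, 9.44 and 9.30 in WT and 9.58, 9.31 and 9.52 in Lxn-/-, a difference of 0.13 (SE 0.089) with overlapping groups, which was 0.078 without Lxn-/- replicate 1 and 0.21 without Lxn-/- replicate 2. Iigp1, an effector GTPase that disrupts such vacuoles, measured 8.92, 9.04 and 9.41 in WT and 9.35, 9.11 and 9.28 in Lxn-/-. Its highest pool was WT replicate 3, and its difference of 0.12 (SE 0.13) was 0.020 without WT replicate 1 and 0.26 without WT replicate 3. Irgm1, a regulator of the effector GTPases whose loss is known to impair blood stem cells, was the member with the lowest difference, at -0.060 (SE 0.074). Its 6 values lay between 10.33 and 10.49, and its confidence interval ran from -0.23 to 0.11.

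The shared GTPase probe sets are given under all their symbols, since their signal cannot be assigned to 1 gene. The probe set of Irgm2 and Igtp, which encode regulators like Irgm1, differed by -0.055 (SE 0.072), that of Ifi47 and the odorant receptor gene Olfr56 by -0.034 (SE 0.073) and that of Gbp2 and Gbp2b by -0.041 (SE 0.15). The probe set of Gbp6 and 5 related genes (Gbp4, Gbp8, Gbp9, Gbp10 and Gbp11) differed by 0.15 (SE 0.12). None of these 4 had groups without overlap. The immunity-related GTPase sets here are those of Iigp1, of Irgm1, of Irgm2 with Igtp and of Ifi47 with Olfr56. With every pool included and unweighted, Iigp1 had a higher mean in Lxn-/-, at 0.12, and the others a slightly lower one. Iigp1 and Irgm1, which have probe sets of their own, had a median difference of 0.030. Irgm1 was at 0.0075 with array weights. Whether the shared sets kept their direction in other settings was not tested.

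OAS enzymes sense double-stranded RNA and make a messenger that activates an RNA-degrading enzyme, and OAS-like proteins are relatives with other antiviral or regulatory roles. All 5 members had a higher mean in Lxn-/-, except Oasl1 with a common median, and the median difference was 0.097. Oas2 (probe set 10533198) measured 10.39, 9.85 and 9.68 in WT and 10.73, 10.10 and 10.61 in Lxn-/-. The groups overlapped, because Lxn-/- replicate 2 lay below WT replicate 1. The difference was 0.51 (SE 0.21, 95% confidence interval 0.017 to 0.998), with an unadjusted p of 0.0442 and an adjusted p of 0.993 in limma and an exact two-sided permutation p of 0.2.

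The other OAS members had smaller differences. Oas3 measured 9.58, 9.52 and 9.63 in WT and 9.87, 9.52 and 9.77 in Lxn-/-, a difference of 0.14 (SE 0.097) in which Lxn-/- replicates 1 and 3 stood above the WT pools and Lxn-/- replicate 2 among them. It was 0.067 without Lxn-/- replicate 1 and 0.24 without Lxn-/- replicate 2. Oas1a differed by 0.097 (SE 0.079), and a second probe set that it shares with Oas1g by 0.18 (SE 0.10). Oasl2 differed by 0.050 (SE 0.10) and Oasl1, known to restrain translation of Irf7, by 0.035 (SE 0.080), which turned to -0.0098 with a common median.

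IFIT proteins bind viral RNA ends and stop their translation, and the 3 measured genes had a higher mean in Lxn-/- with a median difference of 0.15. Ifit3 measured 8.59, 8.11 and 8.66 in WT and 9.02, 8.69 and 8.53 in Lxn-/-. Lxn-/- replicate 1 was its highest pool and WT replicate 2 its lowest. The difference of 0.29 (SE 0.17) was 0.12 without WT replicate 2 and 0.40 without Lxn-/- replicate 3. Ifit2 measured 8.88, 9.004 and 9.11 in WT and 9.30, 9.20 and 8.97 in Lxn-/-, a difference of 0.15 (SE 0.10) that was 0.082 without Lxn-/- replicate 1 and 0.25 without Lxn-/- replicate 3. Ifit1 was highest in WT replicate 3, at 9.57 against 9.16 and 9.08 in the other WT pools and 9.37, 9.23 and 9.39 in Lxn-/-. It differed by 0.060 (SE 0.13), and by -0.034 without WT replicate 2. The 3 genes thus did not share a common order of pools, although WT replicate 3 was the highest WT pool for each.

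Usp18 removes the ubiquitin-like modifier Isg15 from proteins and shuts off the type I receptor. It measured 10.05, 9.92 and 10.47 in WT and 10.46, 10.23 and 10.26 in Lxn-/-, so that WT replicate 3 and Lxn-/- replicate 1 were nearly level at the top. The difference of 0.17 (SE 0.14) was 0.057 without WT replicate 2 and 0.34 without WT replicate 3. The probe set that Isg15 shares with Gm9706 lay close to the dim mark in every pool, from 6.90 to 7.24, and differed by -0.084 (SE 0.093).

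The RNA sensors Ifih1 (MDA5) and Ddx58 (RIG-I), which detect viral RNA and start interferon production, had differences near 0. Ddx58 measured 11.52, 11.51 and 11.57 in WT and 11.60, 11.43 and 11.58 in Lxn-/-, a difference of 0.0048 (SE 0.071, 95% confidence interval -0.16 to 0.17). Ifih1 differed by 0.0020 (SE 0.080, 95% confidence interval -0.18 to 0.19). Both turned negative with a common median, at -0.040 and -0.043.

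The transcription factors all had a higher mean in Lxn-/-, except Irf9 with a common median, and the median difference was 0.11 over 4 genes. Irf7, the amplifier of interferon alpha transcription, measured 9.87, 9.84 and 10.15 in WT and 10.24, 10.06 and 10.04 in Lxn-/-, a difference of 0.16 (SE 0.10), or 0.10 without Lxn-/- replicate 1 and 0.26 without WT replicate 3. Irf1, an early factor induced by both interferon types, measured 11.11, 10.95 and 10.78 in WT and 11.23, 10.91 and 11.07 in Lxn-/-, a difference of 0.13 (SE 0.11), or 0.042 without WT replicate 3 and 0.21 without WT replicate 1. A second probe set of Irf1 differed by 0.031 (SE 0.13). WT replicate 3 was thus the highest WT pool for Irf7 and the lowest for Irf1.

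Stat2, the subunit that carries the activating domain of the ISRE-binding complex, measured 10.23, 10.18 and 10.11 in WT and 10.27, 10.30 and 10.25 in Lxn-/-. Its groups did not overlap although the difference was only 0.097 (SE 0.064), with an unadjusted p of 0.172 and an adjusted p of 0.993 in limma. Irf9, the DNA-binding subunit of the same complex, differed by 0.017 (SE 0.084), and by -0.028 with a common median. Stat2 and Mx1 were the 2 members, or 8.0%, whose groups did not overlap with Lxn-/- higher, against a background of 3.60% of probe sets, and 0 members were lower without overlap, against 5.38%.

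Of the other effectors, 3 of 5 (Ifi27l2a, Rsad2 and, except with a common median, Xaf1) had a higher mean in Lxn-/-, and the median difference was 0.035. Ifi27l2a, a small interferon-induced mitochondrial protein gene, measured 7.87, 7.54 and 7.48 in WT and 8.17, 7.65 and 7.66 in Lxn-/-. Lxn-/- replicate 1 and WT replicate 1 were the highest pools, and the difference of 0.19 (SE 0.16) was 0.022 without Lxn-/- replicate 1. Rsad2 (viperin), an enzyme that makes a chain-terminating nucleotide, measured 9.40, 9.64 and 10.06 in WT and 9.96, 9.75 and 9.95 in Lxn-/-. The spread among its WT pools (SD 0.33) exceeded its difference of 0.19 (SE 0.16), which was 0.035 without WT replicate 1 and 0.36 without WT replicate 3.

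The remaining effectors were close to level between genotypes. Xaf1, a partner of the apoptosis inhibitor Xiap, differed by 0.035 (SE 0.12) and by -0.096 without Lxn-/- replicate 1. Bst2 (tetherin), which holds budding viruses at the cell surface, differed by -0.052 (SE 0.067), and Ifi35 by -0.016 (SE 0.062).

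**Figure D2:**
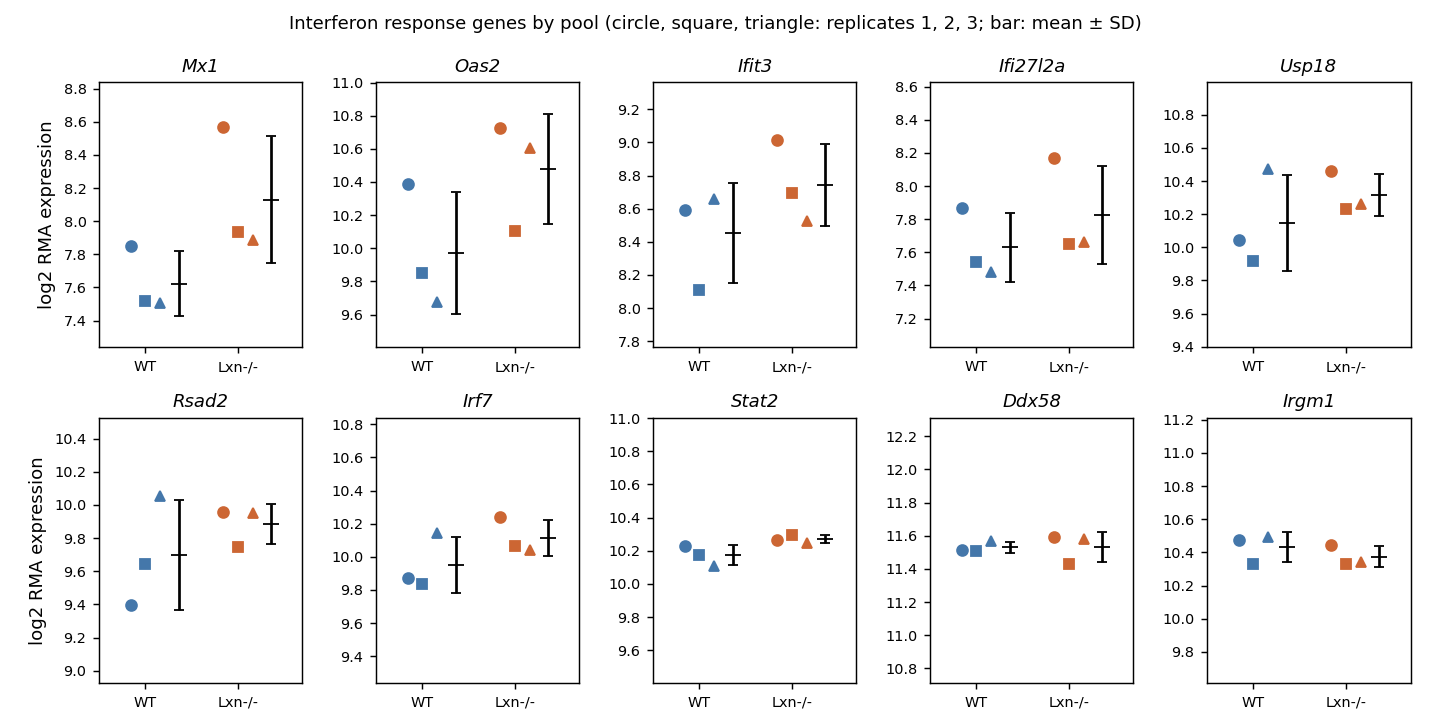
Log2 RMA expression of 10 members in each pool (circles, squares and triangles are replicates 1, 2 and 3) with mean ± SD beside the points; each panel spans the same width of 1.6 log2 units. The 3 Lxn-/- pools of Mx1 lie between 7.89 and 8.57, above WT pools between 7.50 and 7.85, whereas pools of Ddx58 and Irgm1 lie close together.

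Set side by side over all 6 pools, the dynamin-like GTPases had a median difference of 0.37 over 2 genes and the sensors one of 0.0034 over 2. IFIT genes (0.15 over 3), transcription factors (0.11 over 4) and OAS genes (0.097 over 5) lay between, and the 5 measured GTPases together had a median of 0.13. Differences between roles were not tested, and the order at both ends moved with the setting. Without WT replicate 3, Usp18, alone in its role, was at 0.34 and the dynamin-like pair at 0.31. The other effectors lay below the sensors with quantile normalization, at 0.0048 against 0.0058, and without WT replicate 3, at 0.00061 against 0.045. With a common median the sensors were the lower of these 2 roles, at -0.042 against -0.011. Without Lxn-/- replicate 1 the medians were 0.17 for the dynamin-like pair, 0.082 for IFIT, 0.072 for transcription factors, 0.056 for OAS and -0.027 for sensors.

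Over all 25 members, Lxn-/- replicate 1 was the pool that led. It was the highest of the 6 pools for 14 of 25 members, or 56.0%, against 16.8% of all genes, and lay above the mean of the 6 pools for 24 members, with Bst2 as the exception. Its median deviation over the members was 0.17, against 0.026 in Lxn-/- replicate 3 and -0.072 in Lxn-/- replicate 2. WT replicates 1, 2 and 3 had medians of -0.029, -0.092 and 0.038. Lxn-/- replicate 2 thus lay below WT replicates 1 and 3, and the genotypes overlapped on this measure. Without Lxn-/- replicate 1, 18 of 25 members were higher in Lxn-/-, against 44.4% of all genes, and the median difference fell from 0.12 to 0.055.

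The members differed in where WT replicate 3 lay among the WT pools. For 16 members, among them Rsad2, Usp18, Ifit1, Iigp1 and Irf7, WT replicate 3 was the highest WT pool, and for 8 (Oas2, Mx1, Mx2, Irf1, Stat2, Ifi35, Ifi27l2a and Xaf1) it was the lowest, with Gbp3 between. Over all genes WT replicate 3 was the highest WT pool for 38.8%, and the share for which it was the lowest WT pool was not counted. These sets of genes were formed after the values were seen and carry no test. They rest on a WT pool that also enters each difference, so their differences are not compared. Without WT replicate 3, 22 of 25 members were higher and the median difference was 0.13.

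**Figure D3:**
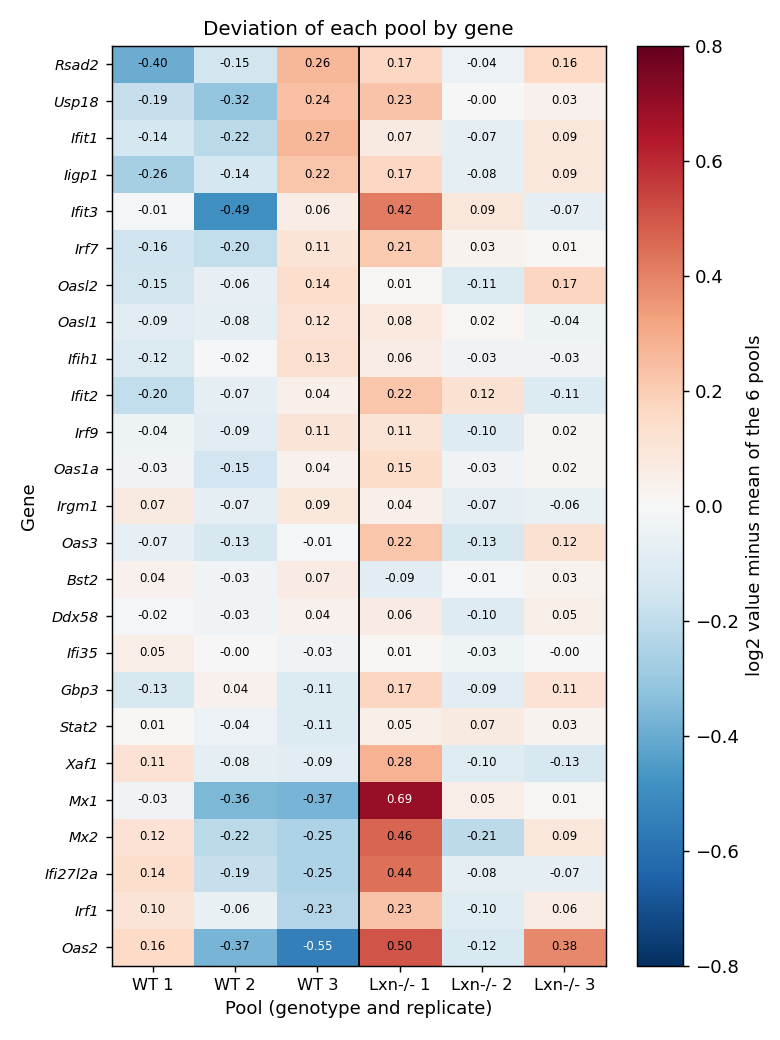
Deviation of each pool from the mean of the 6 pools for 25 members (rows) and 6 pools (columns), in log2 units, with rows ordered by how far WT replicate 3 lay above the WT mean. Lxn-/- replicate 1 is positive in 24 rows, and WT replicate 3 turns from positive at the top to negative at the bottom.

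The wider pathway was counted from a list of 115 further genes, of which 102 had a probe set of their own. Before adjustment, 0 of these 102 had a p under 0.05 in limma in either direction, where 1.47% of all probe sets were higher and 2.43% lower, and 0 passed after adjustment. The mean was higher in Lxn-/- for 52 and lower for 50, and the median difference was 0.0037.

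Genes of ligands and of the upstream machinery differed in both directions. Of 15 measured interferon genes, 7 were higher and 8 lower, with a median of -0.054 and a range from -0.25 (SE 0.13) for Ifna2 to 0.26 (SE 0.21) for Ifng, the gene of type II interferon, whose highest pool was Lxn-/- replicate 2 at 8.20. Their groups overlapped, whereas Ifnb1, the first type I interferon made on infection, was higher without overlap at 0.14 (SE 0.067) and Ifna9 lower without overlap at -0.13 (SE 0.077). Ifnb1 was the 1 of 15 that was higher without overlap, or 6.67%, where 3.60% of all probe sets were. Ifna9 was the 1 that was lower, where 5.38% of all probe sets were. Of the 15, 7 lay below the dim mark, Ifnb1 among them. The 9 measured receptor and kinase genes ran from -0.074 for Ifngr2 to 0.051 for Ifnlr1, with -0.064 (SE 0.090) for Jak1 and 0.034 (SE 0.062) for Ifnar1. Ifnar1 was the 1 of these 9, or 11.1%, that was higher without overlap, against the same background of 3.60%. Of 16 genes of nucleic acid sensing, 7 were higher, with a median of -0.025; Ticam1, the adaptor of the receptor Tlr3, differed by -0.22 (SE 0.096) and the kinase gene Tbk1 by 0.13 (SE 0.10).

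Feedback regulators and antigen presentation genes had medians near 0 as well. The 8 negative regulators had a median of -0.021, and Socs3, an inhibitor of cytokine receptors that is also counted among immediate early genes, differed by 0.40 (SE 0.18). The 11 measured genes of antigen processing, which both interferon types induce, had a median of -0.032 with 5 higher. Psme1, a proteasome activator subunit, differed by -0.17 (SE 0.13) and Nlrc5, an activator of class I genes, by 0.094 (SE 0.083).

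Of 43 further interferon-induced genes, 28 were higher in Lxn-/- and 15 lower, or 65.1% higher, with a median of 0.045, against 0.12 for the 25 members. Cxcl10, a chemokine of the interferon response, measured 8.51, 8.82 and 8.52 in WT and 8.72, 8.90 and 8.90 in Lxn-/-, a difference of 0.22 (SE 0.10). Ddx60, a helicase linked to RNA sensing, differed by 0.20 (SE 0.098), and Ifi202b, which lay below the dim mark, by 0.23 (SE 0.10). Ifi202b, Slfn5 at 0.14 (SE 0.074) and Herc6 at 0.11 (SE 0.064) were the 3 of 43 that were higher without overlap, or 6.98%, where 3.60% of all probe sets were. The 1 gene lower without overlap, where 5.38% of all probe sets were, was Isg20, an exonuclease, at 10.93, 10.98 and 11.51 in WT and 10.69, 10.92 and 10.85 in Lxn-/-, a difference of -0.32 (SE 0.15).

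Marker lists of other cells were measured in the same pools, and their part in the member values was not tested. Plasmacytoid dendritic cells, the main producers of interferon alpha, had 7 of 8 markers measured, all above the dim mark, with mean levels of 9.52 to 9.77 in WT and 9.37 to 9.58 in Lxn-/-. Of these 7, 3 had a higher mean in Lxn-/- and 4 a lower one, and 1 of the 7 is Bst2, itself a member. Siglech, a defining gene, measured 8.18, 7.72 and 8.19 in WT and 8.16, 8.22 and 7.79 in Lxn-/-. Ly6d, which B lineage cells also express, differed by -0.91 (SE 0.22, unadjusted p 0.00369 and adjusted p 0.993 in limma) and Spib by -0.24 (SE 0.086, unadjusted p 0.0220 and adjusted p 0.993 in limma), both without overlap. Monocyte and macrophage markers (9 of 11 measured) had mean levels of 9.06 to 9.25 in WT and 9.03 to 9.25 in Lxn-/-. Of these, 6 had a higher mean in Lxn-/-. Ctss was lower without overlap, at -0.49 (SE 0.12, unadjusted p 0.00424 and adjusted p 0.993 in limma). Cd68 was higher without overlap, at 0.19 (SE 0.089, unadjusted p 0.0611 and adjusted p 0.993 in limma). Lxn-/- replicate 1, the leading pool of the members, and WT replicate 1 were level at the top of that list, at 9.25 each.

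In other lists most markers differed in 1 direction between genotypes, or 1 pool stood apart. All 8 plasma cell markers had a lower mean in Lxn-/-, with mean levels of 10.55 to 11.04 in WT and 10.14 to 10.26 in Lxn-/-. All 9 measured B cell markers were lower too, but their levels overlapped, at 9.87 to 10.46 in WT and 9.74 to 9.99 in Lxn-/-. All 6 measured erythroid markers were lower in Lxn-/- as well, with levels that overlapped, 9.28 to 9.91 in WT and 8.89 to 9.62 in Lxn-/-. All 8 gate and stem cell genes were higher, again with overlap, at 11.28 to 11.33 in WT and 11.27 to 11.48 in Lxn-/-. Immediate early genes, which respond to handling of cells, were higher in Lxn-/- for 21 of 23 genes and lowest in WT replicate 3, at 10.54 against 10.87 to 11.29 in the other pools, with Lxn-/- replicate 1 at 11.11. Mast cell and basophil markers were lowest in Lxn-/- replicate 3, at 8.14 against 8.81 to 9.18 elsewhere. T and NK cell markers, a source of type II interferon, were highest in Lxn-/- replicate 2, at 8.76 against 8.03 to 8.40 elsewhere.

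**Figure D4:**
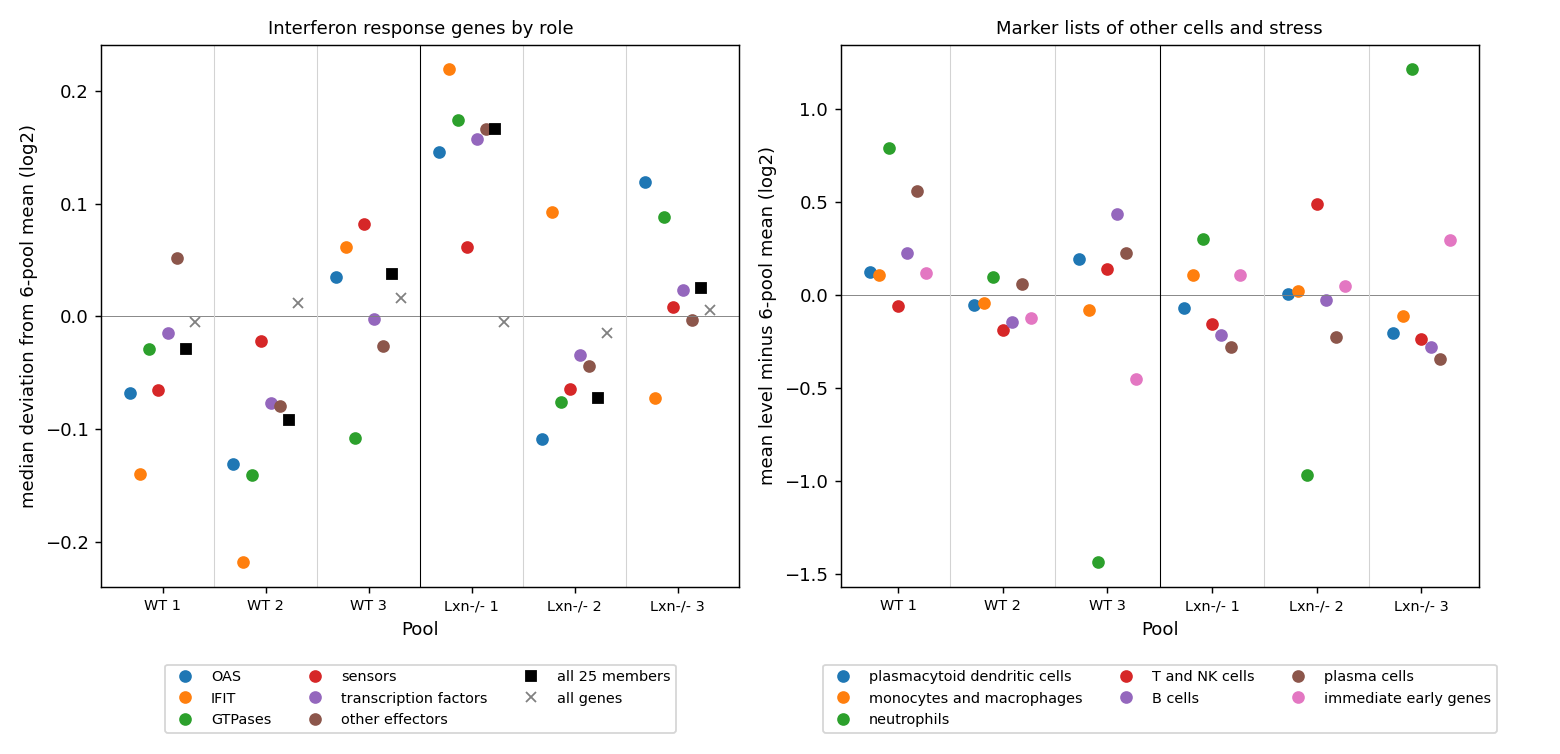
Left, median deviation from the 6-pool mean, in log2 units, over the members of each role, over all 25 members (squares) and over all genes (crosses), for each pool. Right, mean level of 7 marker lists minus its 6-pool mean, in log2 units; the members peak at 0.17 in Lxn-/- replicate 1, while neutrophil markers range from 9.04 in WT replicate 3 to 11.69 in Lxn-/- replicate 3 in level.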

How the data were processed

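RNA of 6 pools of LT-HSCs was measured on 6 arrays, 3 per genotype. The deposited values are log2 expression that the authors normalized with RMA, as the design text says; the submitters' processing notes add Partek 6.0. The sources used here do not give the background step, probe set definitions or genome build. Of 35557 probe sets, 21789 had 1 symbol and 1621 several in GEO's platform annotation, and 12147 were unnamed. The 23410 named probe sets were fitted with limma 3.58.1 in R 4.3.3 (lmFit and eBayes, no covariates, two-sided, Benjamini-Hochberg adjustment over all of them), which was tested on simulated data. SE is limma's moderated standard error. Precision is limited by the number of arrays. All 32 genes of the list are named, and up to 4 genes of lowest unadjusted p per role of the wider pathway; others were chosen after their values were seen. Members and lists were chosen with earlier results of these data known. Replicate numbers were not treated as pairs. Deviations of same-numbered pools correlated at 0.37, -0.072 and -0.081, and those of pools with different numbers between -0.34 and 0.36. These values cannot settle whether same-numbered pools were handled together. Alternatives were other normalizations, array weights, variance models, filters, probe set rules, a replicate block and leaving out each array.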

Additional observations from a re-analysis of the deposited data

How the results depend on the processing

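In 15 alternatives, 0 members passed an adjusted p of 0.05 in limma, with the lowest adjusted p at 0.610 with array weights. The count of members higher in Lxn-/- was 21 of 25 with quantile normalization, 17 with a common median and 23 with array weights, and 18 to 22 when single arrays were left out; the median difference was 0.095, 0.076 and 0.16, and 0.055 to 0.13. With the replicate block 0 members passed, 22 were higher and the lowest adjusted p was 0.911. An alternative chosen after seeing the data, with the 5 shared probe sets counted, gave 23 of 30 higher and a median of 0.097. Of the 25 members, 16 kept their direction throughout. The other 9 changed sign, and the cause was not tested. With a common median Oasl1 was -0.0098, Ifih1 -0.043, Ddx58 -0.040, Irf9 -0.028 and Xaf1 -0.011, with quantile normalization Ifih1 was -0.0030, and with array weights Irgm1 was 0.0075. Leaving out single arrays gave -0.0024 to 0.10 for Oasl1, -0.024 to 0.13 for Oasl2, -0.034 to 0.21 for Ifit1, -0.055 to 0.067 for Ifih1, -0.026 to 0.057 for Ddx58, -0.033 to 0.074 for Irf9, -0.033 to 0.0065 for Ifi35 and -0.096 to 0.11 for Xaf1.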
